A study of Drosophila melanogaster with 2 samples.

Results

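The genes described here are 10 members of the Hox complexes of Drosophila melanogaster on chromosome arm 3R. They are lab, pb, bcd, Dfd, Scr, ftz and Antp of the Antennapedia complex (ANT-C) and Ubx, abd-A and Abd-B of the bithorax complex (BX-C). The members were chosen by name, and each was given a window made of its gene body and 2 kb on either side. They are 10 of 13968 protein-coding genes in the annotation. The study mapped regions recovered with Buttonless (btn), a homeodomain protein. The 1 group consisted of transgenic embryos, both sexes pooled, collected 0 to 14 hours after laying, whose btn protein carries enhanced green fluorescent protein (eGFP) at its C-terminal end. Chromatin was sonicated to 200 to 800 bp and precipitated with an antibody against GFP in 2 biological replicates, numbered 2 and 3. No untagged line or other genotype was analysed here, and whole embryos do not show in which cells a region was recovered.

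Hox genes encode homeodomain transcription factors that give body segments their identity along the head-to-tail axis. Their order on the chromosome follows their order of action along the body, and their expression domains are kept by Polycomb and trithorax group proteins acting through elements spread over long introns and intergenic stretches. In the ANT-C, bcd and ftz are homeobox genes of the complex with other roles: bcd encodes the maternal anterior determinant, and ftz is a pair-rule gene.

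4 lists of regions in the dm6 build were used, and all positions count from 1. The authors' candidate lists hold 30000 regions each for replicate 2, for replicate 3 and for the pooled replicates. The authors' optimal list holds the 2153 regions that passed their reproducibility threshold, which are also the 2153 strongest pooled candidates. Signal is the authors' own value for a region and serves only to rank regions within a list, where rank 1 is the strongest. Optimal signals lay between 70.5 and 1220. A region was counted in a window when its summit, the position of the peak's highest point, lay in it.

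The sequences below are from the regions with the highest signal in either complex, from lab, from the Antp region ranked most differently by the replicates, and from the only optimal peak in a noncoding RNA gene of the BX-C. They are the plus strand of 3R in the Release 6 assembly from RefSeq, 5′ to 3′. The first is the whole peak between Glut3 and abd-A, and the others are 101 bases centred on a summit. Capitals mark the words searched for, on either strand.
BX-C, between Glut3 and abd-A, chr3R:16798763-16798981: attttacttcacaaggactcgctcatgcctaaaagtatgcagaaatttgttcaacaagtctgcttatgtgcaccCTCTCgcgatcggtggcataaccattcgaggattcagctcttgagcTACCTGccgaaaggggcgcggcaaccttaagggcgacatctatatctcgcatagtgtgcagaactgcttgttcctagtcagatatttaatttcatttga
BX-C, bxd intron, chr3R:16748687-16748787: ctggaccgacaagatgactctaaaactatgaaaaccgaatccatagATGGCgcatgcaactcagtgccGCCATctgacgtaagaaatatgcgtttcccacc
Antp intron, strongest peak, chr3R:6914467-6914567: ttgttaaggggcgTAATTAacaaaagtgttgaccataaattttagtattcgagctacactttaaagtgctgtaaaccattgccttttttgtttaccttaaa
Antp intron, replicates unlike in rank, chr3R:6920146-6920246: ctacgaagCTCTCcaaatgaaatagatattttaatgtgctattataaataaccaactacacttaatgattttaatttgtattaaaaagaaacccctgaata
bcd upstream, chr3R:6759575-6759675: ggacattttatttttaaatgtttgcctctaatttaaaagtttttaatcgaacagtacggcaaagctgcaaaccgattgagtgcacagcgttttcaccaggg
lab intron, strongest peak, chr3R:6664519-6664619: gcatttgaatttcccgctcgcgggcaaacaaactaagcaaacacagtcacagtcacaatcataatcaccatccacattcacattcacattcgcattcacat

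Optimal peaks lay in the windows of 4 of the 10 members, and all 4 belong to the ANT-C. Antp held 4 optimal summits, lab 2, and pb and bcd 1 each. Dfd, Scr and ftz held none, and neither did any of the 3 BX-C genes. Of all protein-coding genes 18.7% held an optimal summit in the same kind of window, and of the 11442 genes with any pooled candidate in their window 22.8% did. That share depends on window length. It was 14.3% for windows under 10 kb, 31.6% from 10 to 30 kb, 40.6% from 30 to 60 kb and 48.7% at 60 kb or more. In each of these length classes exactly 1 member held an optimal summit: bcd but not ftz, lab but not Dfd or abd-A, pb but not Scr or Abd-B, and Antp but not Ubx. With 2 or 3 members per class these counts are a description, with no test.

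**Figure D1:**
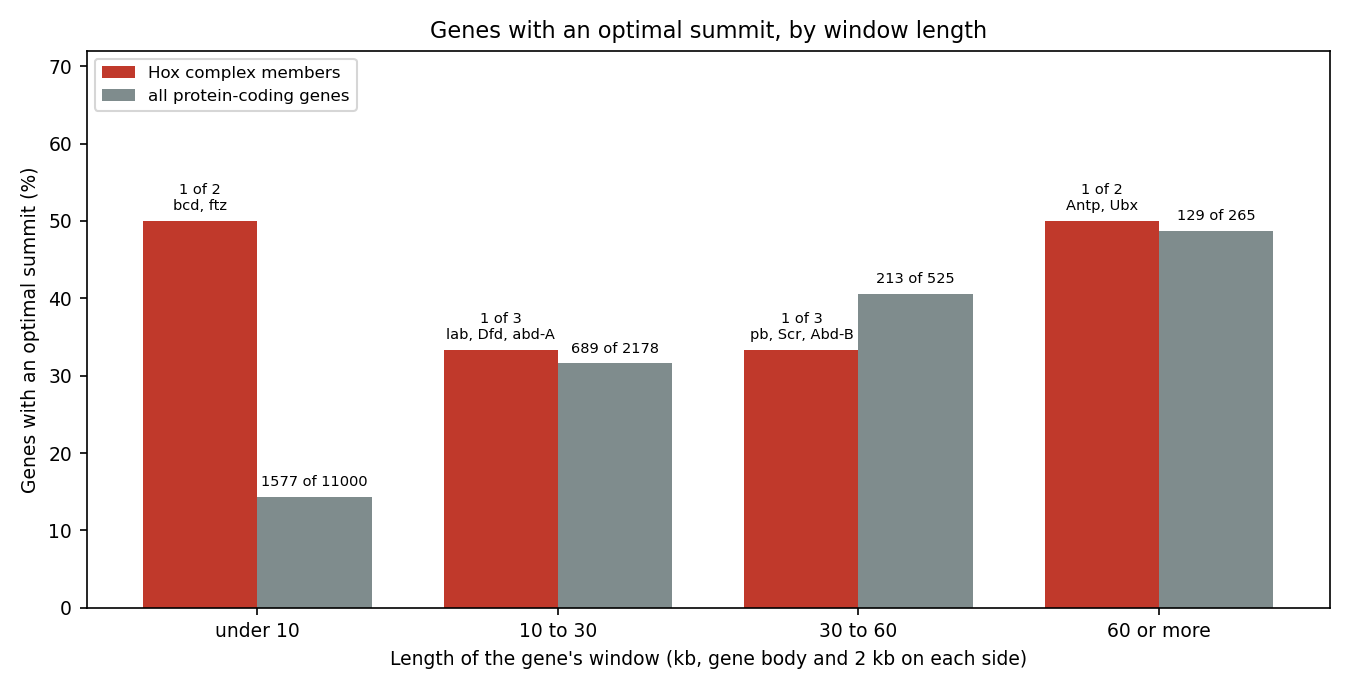
Share of genes with an optimal summit (%, vertical axis) by length of the window in kb (horizontal axis). Red bars are the 10 members, with names and counts above, and grey bars are all protein-coding genes. 1 member in each class holds an optimal summit, against 14.3% to 48.7% of all genes.

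Taken over regions, the members' windows held 97 pooled candidates, of which 8 were optimal. This is 8.25% (exact 95% interval 3.63 to 15.6%), against 7.18% of all 30000 pooled candidates and 6.84% of those on 3R. The complexes differed in where these fell. In windows of ANT-C members 8 of 57 candidates were optimal (14.0%, exact 95% interval 6.26 to 25.8%). In windows of BX-C members 0 of 40 were (exact 95% interval 0 to 8.81%). Both intervals take in the share of all candidates. The difference between the complexes was not tested, because candidate regions of 1 experiment are not replicates. The intervals cover counting error only, and the lists hold no read counts, so depth is unknown.

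**Figure D2:**
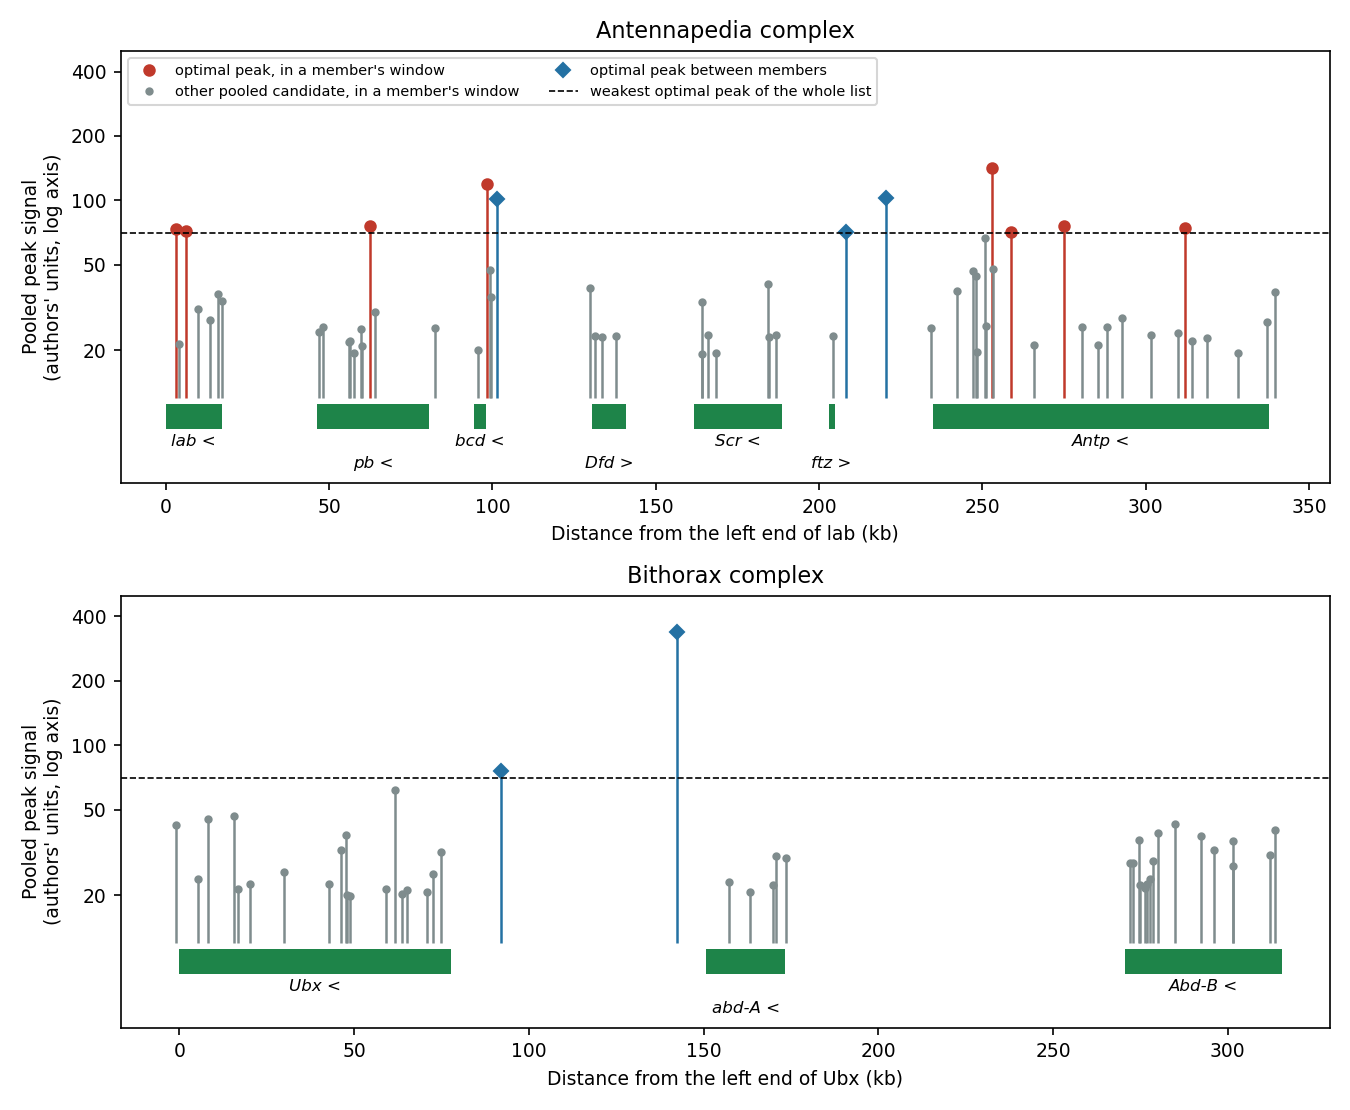
Pooled signal (log axis, authors' units) of regions along each complex, by distance in kb from the left end of lab or Ubx. Red points are optimal peaks in members' windows, grey points other pooled candidates there, blue diamonds optimal peaks between members, and green bars gene bodies with > or < for the direction of transcription. Candidates between the windows that were not optimal are left out. The dashed line is the weakest optimal peak of the whole list, at 70.5.

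At the anterior end of the series, lab (labial, needed in the head and midgut; 3R 6661427 to 6678590, minus strand) held both of its optimal peaks in introns. The stronger one (3R 6664364 to 6664773) had a pooled signal of 73.7 and lay 1115 bp upstream of the nearer of the 2 annotated lab transcription start sites (TSS), which is internal to the gene, and 14021 bp downstream of the outer one. It ranked 3475 in replicate 2 and 1465 in replicate 3. The other (3R 6667305 to 6667714, signal 72.2) lay 4056 bp upstream of the internal TSS and 11080 bp downstream of the outer one, 2.94 kb from the first summit, and ranked 4079 and 1474 in replicates 2 and 3. Replicate 3 placed both among its strongest 2153 candidates and replicate 2 placed neither there. Both are close to the weakest optimal peak. At the outer lab TSS, a candidate 72 bp upstream of it had a signal of 34.0 and a pooled rank of 9232.

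For pb (proboscipedia, which specifies mouthparts; 3R 6707800 to 6742063, minus strand), the optimal peak lay in an intron, 18103 bp downstream of the only annotated TSS (3R 6723755 to 6724164, signal 76.2). Replicate 2 ranked it 1680 and replicate 3 ranked it 3239. The window held 10 pooled candidates, and none was within 1 kb of the TSS. The rest were weak: the median rank over all 10 was 18509 of 30000.

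Among the members bcd (bicoid; 3R 6755842 to 6759466, minus strand) was the only one with an optimal summit within 1 kb of its own TSS, which 10.8% of all protein-coding genes had. The peak (3R 6759420 to 6759829) had its summit 159 bp upstream of the TSS. That summit lay outside any annotated transcript, and the noncoding RNA gene CR45593 is also within 2 kb of it. The peak had a pooled signal of 119, at rank 825, and ranked 828 in replicate 2 and 952 in replicate 3. The summit in replicate 2 was 10 bp and in replicate 3 97 bp from the pooled one, on opposite sides. A pair of weaker candidates lay 1298 and 1542 bp upstream of the TSS, with pooled ranks of 4489 and 8512. Since 1 candidate in each replicate overlapped both of them, their replicate ranks (19844 in replicate 2 and 4787 in replicate 3) are the same.

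The Antp locus (Antennapedia, the determinant of thoracic segments; 3R 6896253 to 6999228, minus strand) is the longest of the members, with a window of 107.0 kb, and it held 24 pooled candidates. All 4 optimal summits were intronic and none was at a TSS. The strongest (3R 6914312 to 6914721) had a signal of 142 and ranked 593 in the pool, 598 in replicate 2 and 640 in replicate 3, so both replicates gave it nearly the same place. It lay 18323 bp downstream of the nearest Antp TSS. The next 5.68 kb along held a peak (3R 6919991 to 6920400, signal 71.6) that ranked 1137 in replicate 2 and 6487 in replicate 3, the widest disagreement among the members' optimal peaks. Further along, a peak (3R 6936093 to 6936502, signal 76.1) lay 3458 bp upstream of an internal TSS and ranked 1786 in replicate 2 and 2650 in replicate 3. The last (3R 6973198 to 6973607, signal 74.4) lay 15033 bp upstream of another internal TSS, 25825 bp downstream of the outermost one, and ranked 3199 in replicate 2 and 1590 in replicate 3. The first 3 of these also lie in CG46458, a gene annotated within the Antp locus, and cannot be assigned to one of the genes by position.

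Just below the threshold in Antp was an intronic candidate with a pooled signal of 67.0 and a pooled rank of 2351, ranked 2384 in replicate 2 and 2955 in replicate 3. Its replicate ranks were closer to each other than those of the optimal peaks with signals of 71.6 and 74.4. A weaker candidate (signal 47.9, rank 4388) lies 202 bp from the strongest Antp summit and overlaps that peak. Near the Antp start sites signals were low: the best candidate within 1 kb of any of the 3 had a signal of 27.2 and a rank of 15276.

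The other ANT-C members had no optimal peak in any part of their windows. The strongest candidate of Dfd (Deformed, for mandibular and maxillary segments) lay 673 bp upstream of its TSS, with a signal of 39.2, a pooled rank of 6707, and ranks of 8047 in replicate 2 and 9385 in replicate 3. For Scr (Sex combs reduced, for the labial segment and prothorax) it was intronic, with a signal of 40.6 and a pooled rank of 6201, and it ranked 13998 in replicate 2 and 8375 in replicate 3. In ftz (fushi tarazu), a gene of 1.92 kb, the single pooled candidate lay in the coding exon at rank 20817 and was found in replicate 2 (rank 12136) but not in replicate 3. For these 3 genes every list put the best candidate outside its strongest 2153.

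In the BX-C, Ubx (Ultrabithorax, the determinant of the metathorax; 3R 16656623 to 16734426, minus strand) came closest to the threshold. Its window of 81.8 kb held 19 pooled candidates, and the strongest was intronic (3R 16718025 to 16718434), 16196 bp downstream of the only annotated TSS. This region had a pooled signal of 61.7 and a pooled rank of 2734. It ranked 1820 in replicate 2, within the strongest 2153 there, and 4100 in replicate 3. No candidate lay within 1 kb of the Ubx TSS. Of the 146 protein-coding genes with a window at least as long, 73 (50%) had no optimal summit either.

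Both genes for the abdomen were weaker in the pool. The best candidate of abd-A (abdominal-A; 3R 16807214 to 16830049, minus strand) lay in a coding exon 777 bp downstream of a TSS, with a signal of 30.5 and a pooled rank of 11810, and it ranked 11024 in replicate 2 and 21415 in replicate 3. For Abd-B (Abdominal-B, which acts in the posterior abdomen; 3R 16927212 to 16972236, minus strand) the best was intronic, with a signal of 42.9 and a pooled rank of 5515. It ranked 19804 in replicate 2 and 4217 in replicate 3. The highest rank anywhere in the Abd-B window was 3374 in replicate 2 and 4025 in replicate 3, from different regions. Abd-B has 6 annotated start sites, and 4 of its 16 pooled candidates lay within 1 kb of one, the best of these at rank 11615.

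**Figure D3:**
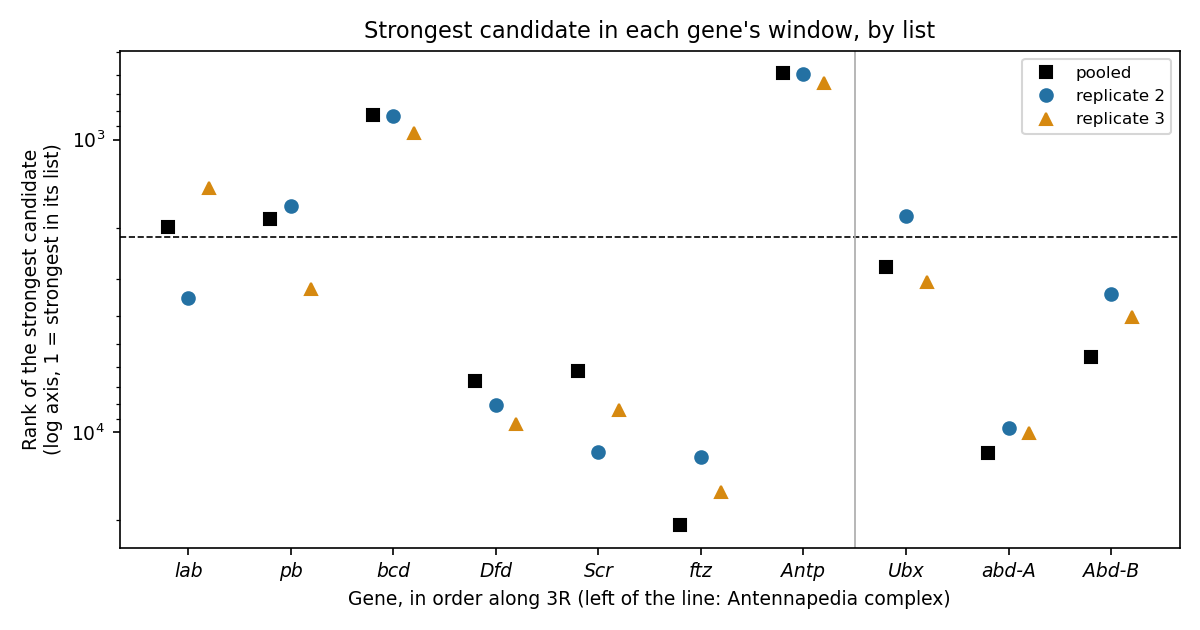
Rank of the strongest candidate in each member's window (log axis, 1 is the strongest) in the pooled list, replicate 2 and replicate 3, with genes in order along 3R. The dashed line marks rank 2153, the size of the optimal list. Only bcd and Antp lie above it in all 3 lists, while lab, pb and Ubx each do so in 1 replicate only.

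Optimal peaks between the members were found in both complexes, and the strongest region of either complex was one of them. It lay in the BX-C between Glut3 (a sugar transporter gene) and abd-A (3R 16798763 to 16798981), 8339 bp from the abd-A gene body and so outside its window. Its signal was 339, at rank 84 of the optimal list, and only 20 of the 501 optimal peaks on 3R were stronger. Both replicates placed it alike, at rank 86 in replicate 2 and rank 88 in replicate 3. At 219 bp it is narrower than 410 bp, the width of 98.9% of pooled candidates and 84.6% of optimal peaks. The nearest annotated start is that of the noncoding RNA gene CR45750, 1725 bp away, and the nearest protein-coding TSS, that of Glut3, is 10564 bp away. The other BX-C peak (3R 16748532 to 16748941, signal 76.0) lay in an intron of bxd, a noncoding RNA gene of the regulatory region upstream of Ubx, 14311 bp from the Ubx gene body. It ranked 2522 in replicate 2 and 2336 in replicate 3. A further bxd candidate fell just below the threshold, with a pooled signal of 70.1 and a rank of 2181, and ranked 1765 in replicate 2 and 3073 in replicate 3.

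In the ANT-C, 3 optimal peaks lay between members' windows. The 5′ UTR of Ama (amalgam, a cell adhesion gene beside bcd) held one with a signal of 102, 3406 bp from bcd, which ranked 1915 in replicate 2 and 753 in replicate 3. Both replicates' candidates there also lie in the noncoding RNA gene CR45593, so this peak cannot be assigned to one gene by position. An intron of the noncoding RNA gene CR44931, between ftz and Antp, held one with a signal of 102 that ranked 1172 in replicate 2 and 1459 in replicate 3. The last was intergenic, 3287 bp from ftz, with a signal of 71.5, and ranked 1677 in replicate 2 and 3842 in replicate 3. It is the nearest optimal summit outside any member's window and was not counted for ftz. Of 16 other genes of the complexes, 2 had an optimal summit in their window, Ama and bxd, and 13 had a pooled candidate. Of all protein-coding genes with windows under 10 kb, 14.3% held an optimal summit. All 16 but bxd, with a window of 35.1 kb, are of this length, and among them only Ama held one. That share covers protein-coding genes alone, while the 16 include noncoding genes, and mir-iab-4 and mir-iab-8 have the same bounds. The homeobox genes zen and zen2, Glut3, Edg84A, all 7 cuticle genes of the Ccp84A group, mir-10, mir-iab-4 and mir-iab-8 had none. In mir-10 the strongest candidate had a signal of 48.0 and a rank of 4384.

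Measured along the chromosome from the first to the last member, the complexes held candidates at similar density and optimal peaks at different density. The ANT-C (338 kb) held 27.5 pooled candidates and 3.26 optimal peaks per 100 kb. For the BX-C (316 kb) the values were 27.9 and 0.634, and for the whole arm 22.8 and 1.56. The optimal densities rest on 11 peaks in the ANT-C and 2 in the BX-C, and their difference was not tested. By replicate, the strongest 2153 candidates gave 2.37 (replicate 2) and 2.66 (replicate 3) per 100 kb in the ANT-C. In the BX-C they gave 1.58 (replicate 2) and 0.317 (replicate 3), so the replicates were unlike there. Over the whole arm they gave 1.54 (replicate 2) and 1.58 (replicate 3). The BX-C was thus near the arm's density in replicate 2 and below it in replicate 3. In replicate 2, 5 such candidates lay in the BX-C, against 1 in replicate 3: in Ubx, in bxd, beside abd-A, and a pair within the noncoding RNA gene iab8. Only the one beside abd-A was shared. The 2 longest intervals between neighbouring optimal summits that reach into a complex both reached into the BX-C, and both extend beyond it. The first ran for 224 kb from 3R 16524307, outside the complex, across Ubx up to the bxd peak. The second ran for 188 kb from the peak beside abd-A past the end of Abd-B. On 3R, 29 and 37 of the 500 such intervals were longer than these, and the median interval was 26.5 kb. Of the intervals lying wholly inside a complex, the longest was 107 kb in the ANT-C and 50.1 kb in the BX-C.

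Agreement of the replicates over the members was near that over all candidates. Of the 97 pooled candidates in members' windows, 49 (50.5%) overlapped a candidate in both replicates by at least 1 bp, against 50.7% of all pooled candidates. A further 23 were found in replicate 2 only, 20 in replicate 3 only and 5 in neither. Over the 49, replicate signals had a Spearman correlation of 0.536, against 0.566 over the 15208 such candidates of the whole list. It was 0.706 over 31 regions of ANT-C members and 0.0971 over 18 regions of BX-C members, which hold no optimal peak. These correlations are descriptions: the regions share 2 libraries and some neighbouring regions share a replicate candidate. All 8 optimal peaks overlapped a candidate in each replicate, with its summit within 100 bp of the pooled one. The optimal list was itself selected for reproducibility, so this overlap is no separate evidence of agreement. Of the 8, 2 were among the strongest 2153 of both replicates, at bcd and the strongest of Antp. The same share over all optimal peaks was not computed. Apart from these 2, the members' optimal peaks had pooled signals of 71.6 to 76.2, near the weakest optimal signal of 70.5. Another 3 were so in replicate 2 only (pb and a pair in Antp), and 3 in replicate 3 only (both of lab and 1 in Antp).

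**Figure D4:**
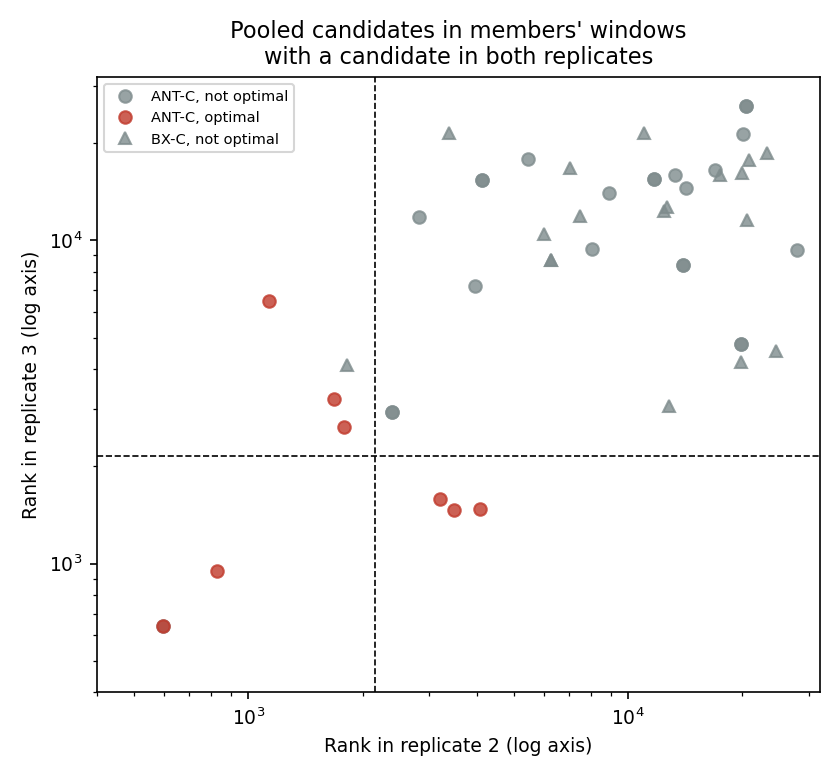
Rank in replicate 2 against rank in replicate 3 (log axes) for the 49 pooled candidates in members' windows with a candidate in both. Red is optimal and grey is not, circles are ANT-C and triangles BX-C, and dashed lines mark rank 2153. A red circle at ranks 598 and 640 covers the weaker neighbour that shares its replicate candidates, and only it and bcd (828 and 952) lie inside both lines.

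Of the members' 8 optimal peaks, 7 had their summit in an intron and 1, at bcd, was intergenic. Of all optimal peaks 49.2% were in introns, and of the 97 candidates in members' windows 61 were (62.9%). None of the 8 lay in a coding exon, where 17 of the 97 candidates and 0.882% of all optimal peaks did. Within members' windows, all candidates in coding or noncoding exons and in UTRs were below the threshold. Median GC content within 100 bp of the summit was 34.8% in the 8 optimal peaks, against 37.8% in all optimal peaks and 46.3% in all pooled candidates. It lay between 29.4% at pb and 46.8% at the stronger lab peak, which was above the median of all candidates.

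Short words within 100 bp of the summit, on both strands, were counted beside their share in the whole lists. GAGAG, part of the GAGA factor site, was in 4 of the 8 optimal peaks (50%), against 27.6% of all optimal peaks and 25.7% of all pooled candidates. These 4 were bcd and 3 of Antp. Within 50 bp it was in 1 of 8, against 12.9% of all optimal peaks, so the higher count rested on the width of the window. TAATTA, the homeodomain core word, was in 1 of 8, the strongest Antp peak, against 12.9% of all optimal peaks and 9.17% of all candidates. The composite word of Hox proteins and their cofactor Extradenticle, TGATNNAT, was in 0 of 8, against 12% and 10.4%. GCCAT, the core of the site of the Polycomb recruiter Pleiohomeotic, was in 1 of 8 (the weaker lab peak), against 27.9% and 37.1%. CAGGTA, part of the site of the early embryonic activator Zelda, was in 1 of 8 (pb), against 4.69% and 5.06%, and in 0 of 8 within 50 bp. CGATA, a word of the insulator protein BEAF-32, was in 2 of 8, against 27.3% and 22.5%, and in 0 of 8 within 50 bp. With 8 peaks each count is a description, and a word is a match of letters only. In the peak beside abd-A, printed above, GAGAG (as CTCTC) and CAGGTA (as TACCTG) each occur once. The bxd peak has GCCAT on both strands, 1 match on each, and in the printed bases of the lab and bcd peaks none of the 6 words was found.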

How the data were processed

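Regions were analysed from 4 lists in the dm6 build: 1 of candidates for each replicate, 1 of candidates for the pool, and the optimal peaks. Per the deposited README files, candidates were derived by the authors from alignments and a control and were the input of an irreproducible discovery rate analysis that gave the optimal list. No aligner, peak caller, version or threshold is named in the sources used here. Signal, as deposited by the authors, was used only to rank regions within a list. Summits are the region's start plus the deposited offset. Lists in dm3 were not used here, and nothing was converted between builds.

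Gene models came from Ensembl release 115 (BDGP 6.54), and the bounds of all 10 members were the same in RefSeq. Each summit took 1 class, in this order of precedence: coding exon, UTR (5′ before 3′), exon without coding sequence, intron, intergenic. Windows were counted with Python 3.11.15 and pandas 2.3.3, and the counting was tested on simulated data. The series has 1 group, so no test between groups was run. Members, lists and words were chosen with earlier results of these data known. Genes named are the members, listed genes of the complexes, listed cofactors and targets, other genes there holding an optimal summit, and the 5 genes nearest Antp in optimal summits per 10 kb. CG46458, CR45750 and iab8 were named after their values were seen. Alternatives were other windows, single replicates, a stricter peak list, other overlaps and a narrower word window.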

Additional observations from a re-analysis of the deposited data

How the results depend on the processing

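Every setting run kept BX-C members without an optimal summit except the use of replicate 2 alone, where the strongest 2153 candidates put 1 in Ubx. Among optimal peaks at or above their median signal, 2 members (bcd and Antp) held 2 summits, in place of 4 members and 8 summits. The share of all protein-coding genes fell as well, to 10.6% from 18.7%, while with either single replicate it was 18.7%. Using single replicates, 3 to 4 members held 5 to 6 summits: lab lost its pair without replicate 3, and pb its single one without replicate 2. Antp had 2 summits without replicate 2 and 3 without replicate 3. The share of candidates that ranked within the strongest 2153 was 5.10% to 5.61% in single replicates, in place of 8.25%. Over all 30000 candidates of a list this share is 7.18%. The members thus lay above it in the pool and below it in each replicate, and the difference was not tested. Of the optimal peaks 2 had one of the strongest candidates of each replicate, in place of 8 with any candidate. The Spearman correlation was 0.190 over the 8 optimal peaks alone (the cause was not tested), and 0.550 to 0.608 in the other settings. With gene bodies alone 3 members held 7 summits (bcd lost its own), and with 5 kb around them 5 members held 10 (bcd and ftz gained 1 each); of all genes 7.11% and 27.5% held one. Within 50 bp of the summit, GAGAG was in 1 of 8 peaks (12.9% of all optimal peaks), and CGATA and CAGGTA were in 0 of 8. No paired analysis was possible because the series has 1 group. Unknown read depth limits every statement on weak candidates.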

Other observations

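Genes that act with or under Hox proteins were counted in the same windows. Of 7 cofactors and collaborators, 2 held an optimal summit, against 18.7% of all protein-coding genes: hth (homothorax, which brings Extradenticle into the nucleus) held 3 in a window of 136 kb, the strongest with a signal of 80.7, and cad (caudal, a posterior determinant) held 1 with a signal of 139. The cad peak ranked 1217 in replicate 2 and 377 in replicate 3. No optimal summit lay in the windows of exd (extradenticle), tsh, tio, disco and disco-r. Of 9 matched Hox target genes, 5 held an optimal summit, against the same 18.7% of all protein-coding genes. They were fkh (fork head, a salivary gland and gut factor; signal 235, ranked 249 in replicate 2 and 174 in replicate 3), dpp (a BMP ligand; 183, ranked 356 and 374), ct (cut; 114.7), Dll (Distal-less, a limb factor; 84.8) and wg (wingless, a Wnt ligand; 75.02). For ems, rpr, salm and vvl there was none, and the other listed name, conn, matched no gene. Windows ran from 4.90 kb (rpr) to 74.4 kb (ct) among the targets and from 8.04 kb (exd) to 136 kb (hth) among the cofactors. The 18.7% is not matched for length: by length class it ran from 14.3% under 10 kb to 48.7% at 60 kb or more. These lists are short, were chosen by hand and were not tested.

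In optimal summits per length, Antp had 0.374 per 10 kb of window. Of the 56 other protein-coding genes with at least 4 optimal summits, 50 had more per 10 kb. The 5 nearest in this measure were Svil (0.398), spri (0.403), shep (0.317), kirre (0.301) and Ptp61F (0.293), all in windows of 99.4 to 398 kb.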
